A study of Homo sapiens with 4 samples.

Results

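Cytochrome P450 enzymes are heme proteins that oxidise drugs, pollutants, vitamins and fatty acids. The 7 genes chosen by name were CYP1A1, CYP1B1, CYP2S1, CYP24A1, CYP4F3, CYP4F11 and CYP4F12, taken from protein-coding rows whose symbol equals a listed name. Of these, 6 had values among the 16371 genes of the table, and CYP1A1 was not analysed here. All 6 passed the filter on low values, a mean FPKM of 1 or more (FPKM counts fragments relative to transcript length and library size).

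The cells were A549, an established line of human lung adenocarcinoma, grown as tumor cell clusters. The titles of all 4 libraries carry the label SUS. One group carried a short hairpin RNA against the phosphatase gene DUSP23 (shDUSP23, labelled as DUSP23 knockdown) and the other a control construct (shMock, labelled as wild type). Each group had 2 libraries from total RNA made with an mRNA kit, and the labels do not say whether these were separate cultures. The p-values below therefore reflect only how far these 4 libraries spread, which may be technical. Both knockdown libraries carry the same header label, ShDU2. How many hairpins or clones it stands for is not given in the sources used here.

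As background, CYP1A1, CYP1B1 and CYP2S1 are induced through AHR, the ligand-activated receptor for dioxins and polycyclic aromatic hydrocarbons, and CYP1B1 hydroxylates estradiol and activates carcinogens. CYP24A1 is the mitochondrial 24-hydroxylase that inactivates vitamin D and is itself a target of the vitamin D receptor VDR. The CYP4F enzymes hydroxylate the ends of fatty acid chains, among them leukotriene B4 for CYP4F3. Microsomal P450s receive electrons from POR, and mitochondrial ones from the ferredoxin FDX1 and its reductase FDXR.

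All 6 main coding transcripts held, once and in frame, the heme-binding signature of P450s, the stretch around the cysteine that binds the heme iron. The stretches are shown because they mark what these enzymes share and how near the CYP4F copies are to each other. They were read from GENCODE release 29 transcripts on GRCh38, 5′ to 3′, and capitals mark the cysteine codon.
CYP1B1-205: ttttcagtgggcaaaaggcggTGCattggc
CYP2S1-201: ttctccttagggaagcgtgtcTGCcttgga
CYP24A1-201: tttggcgttggaaaaagaatgTGCattggt
CYP4F3-201: ttctcagcagggcccaggaacTGCatcggg
CYP4F11-201: ttctcggcagggcccagaaacTGCatcggg
CYP4F12-215: ttctccgcagggcccaggaacTGCatcggg
Over these 30 bases CYP4F3 shared 28 with CYP4F11 and 29 with CYP4F12. CYP24A1 and CYP4F3 shared 15, and CYP1B1 and CYP2S1 shared 17. Of all stretches of 50 bases in the listed transcripts of CYP4F3, 8.95% also occurred in transcripts of other genes, mostly CYP4F2. The share was 2.28% for CYP4F12, 0.77% for CYP4F11 and 0 for CYP1B1, CYP2S1 and CYP24A1. How the authors' counting divided such fragments is uncertain, which touches CYP4F3 most.

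The knockdown was checked first. With shMock, DUSP23 had 30 and 35.9 FPKM, and with the knockdown construct 1.71 and 2.71 FPKM (limma log2 fold change -3.64, SE 0.22, Benjamini-Hochberg adjusted p = 3.12e-05), as the labels say. The fragment totals, estimated from the steps of low FPKM values, lay between 21270000 and 25240000 in shMock and were 27000000 and 42240000 in shDUSP23. The epithelial markers KRT8, KRT18, KRT7, EPCAM and KRT19 summed to 2539 to 2628 FPKM in shMock and 2008 to 2077 FPKM in shDUSP23. The alveolar markers SFTPC, SFTPB, SFTPA1 and NKX2-1 had no row used here, and NAPSA was at 1.96 to 3.22 FPKM. Of 14 leukocyte, endothelial and fibroblast markers 3 had a row. COL1A1 was at most 4.66 FPKM and PDGFRB at most 0.273 FPKM, whereas CD68, a lysosomal membrane protein gene of macrophages, had 24.4 and 23.5 FPKM in shMock and 94.9 and 131 FPKM in shDUSP23. The part of CD68-expressing cells in the results below was not tested.

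In the shDUSP23 clusters 4 of the 6 P450 genes were higher and 1 was lower. CYP2S1 rose most, 5.79 times by the group means, CYP4F12, CYP4F11 and CYP1B1 rose 1.46 to 2.32 times, and CYP24A1 fell 2.34 times. CYP4F3 did not pass the test. Over all 13691 tested genes 45.3% were called at a limma Benjamini-Hochberg adjusted p under 0.05, 23.1% as higher and 22.2% as lower, so a call by itself was common in these libraries. The 6202 calls became 3935 without shMock replicate 1 and 3258 without shMock replicate 2. Where 1 library is left out, here and below, its group has a single library, which is assumed to vary like the other group, so a call can end with the fold change nearly the same. The groups did not overlap for 5 of the 6, and for 75.5% of all tested genes. In bulk RNA, fewer cells that express a gene and less RNA per cell cannot be told apart.

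**Figure D1:**
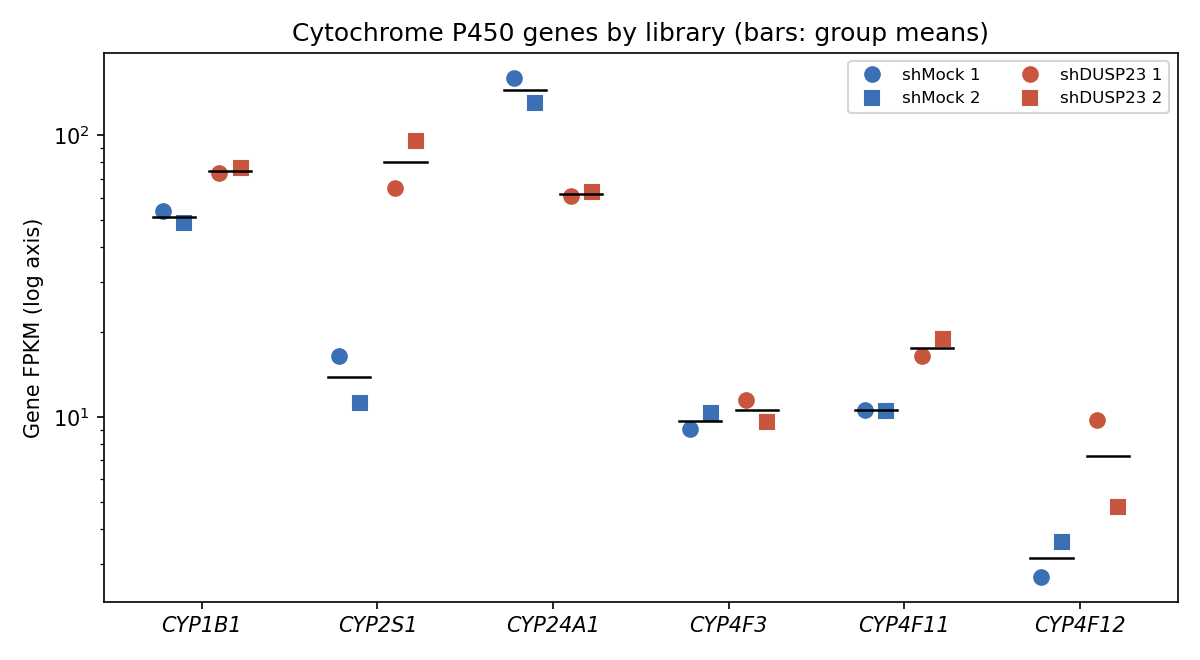
Gene FPKM (vertical log axis) of the 6 P450 genes in each library. Blue points are shMock and red points shDUSP23 libraries, circles replicate 1 and squares replicate 2, and black bars the group means. CYP2S1 goes from means of 13.9 to 80.2 FPKM and CYP24A1 from 145 to 61.8 FPKM, whereas the CYP4F3 libraries overlap.

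Of the enzymes induced through AHR, CYP2S1 occupies chr19:41193219-41207539 (GRCh38, plus strand), and its transcript CYP2S1-201 has 9 exons in GENCODE. Its gene level was 16.5 and 11.2 FPKM in shMock and 65.1 and 95.2 FPKM in shDUSP23. Both knockdown libraries lay far above both controls, and within each group the libraries differed by about as much as 1.5 times. The log2 fold change was 2.49 (95% interval 1.98 to 3.0, SE 0.22; limma, Benjamini-Hochberg adjusted p = 0.000119). Only 0.906% of tested genes had a larger absolute change, and CYP2S1 ranked 57 by rise. The full-length transcript CYP2S1-201 carried this, with 13.3, 10.8, 65.1 and 86.1 FPKM in shMock 1, shMock 2, shDUSP23 1 and shDUSP23 2. It was the only called one of 20 listed transcripts of the 6 genes (log2 fold change 2.59, SE 0.20; limma across 47441 transcripts, Benjamini-Hochberg adjusted p = 0.0358), against 2.02% of all tested transcripts (0.759% higher and 1.26% lower). The short CYP2S1-203, which lacks the heme signature in frame, had 3.23 and 0.388 FPKM in shMock and was listed at 0 and 9.10 FPKM in shDUSP23, with no order between the groups.

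CYP1B1 occupies chr2:38067509-38076151 on the minus strand. Its level was 53.7 and 48.6 FPKM in shMock and 73.3 and 76.2 FPKM in shDUSP23. The replicates lay close together and the groups apart. The log2 fold change was 0.54 (95% interval 0.27 to 0.81, SE 0.12; limma, Benjamini-Hochberg adjusted p = 0.00632). A change of this size was common, since 45.5% of tested genes had a larger one in either direction. The coding transcript CYP1B1-205 held 97.2% to 98.6% of the gene's FPKM in every library. Leaving out shMock replicate 2 ended the call of CYP1B1 (log2 fold change 0.47; limma, adjusted p = 0.052).

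Of 14 other genes of the AHR pathway tested, 1 was called higher and 6 lower. This share of 50% lay near the 45.3% of all tested genes. The median log2 fold change was -0.37 beside 0.03 for all tested genes. At equal library sums 6 were called higher and 3 lower, with a median of -0.04 beside 0.34. AHR itself had 39.9 and 27.4 FPKM in shMock and 39.9 and 38.4 FPKM in shDUSP23 and did not pass (limma, Benjamini-Hochberg adjusted p = 0.299). Its repressor AHRR, which is itself an AHR target, rose from 0.989 and 0.796 FPKM to 3.16 and 1.82 FPKM (log2 fold change 1.07, SE 0.34; adjusted p = 0.0311). That call of AHRR ended without any one of shMock replicate 1 (adjusted p = 0.113), shMock replicate 2 (0.181) and shDUSP23 replicate 1 (0.101), after the GC and length correction (0.172) and with quantile normalization (0.0522). The quinone reductase gene NQO1, a target of both AHR and NRF2, fell from 1251 and 1354 FPKM to 357 and 331 FPKM (log2 fold change -1.92). ALDH3A1, an aldehyde dehydrogenase gene, fell from 448 and 493 FPKM to 147 and 201 FPKM (log2 fold change -1.45). HSP90AA1, a chaperone that holds AHR in the cytosol, fell from 548 and 556 FPKM to 149 and 143 FPKM (log2 fold change -1.91). The scaffold protein gene NEDD9 fell from 22.7 and 18.1 FPKM to 12.6 FPKM in both knockdown libraries (log2 fold change -0.67), and lost its call with equal library sums (adjusted p = 0.141) and without shMock replicate 1 (0.102). TIPARP of the same list had 16.7 and 11.2 FPKM in shMock and 17.8 and 22.3 FPKM in shDUSP23. It did not pass (limma, adjusted p = 0.0702). CYP2S1, CYP1B1 and AHRR were thus higher while NQO1 and ALDH3A1 were lower in the same libraries.

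CYP24A1 was the P450 gene with the highest level in the controls and the 1 of the 6 that fell. It occupies chr20:54153446-54173986 on the minus strand. The shMock libraries had 159.6 and 129.9 FPKM and the shDUSP23 libraries 60.9 and 62.8 FPKM. Both knockdown libraries lay at less than 0.5 times either control. The log2 fold change was -1.21 (95% interval -1.51 to -0.91, SE 0.13; limma, Benjamini-Hochberg adjusted p = 0.000246), and 12.1% of tested genes had a larger absolute change.

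The table listed 6 transcripts of CYP24A1. The full-length CYP24A1-201 held 54.9% to 62.0% of the gene's FPKM and had 90.2, 71.3, 37.8 and 35.8 FPKM in shMock 1, shMock 2, shDUSP23 1 and shDUSP23 2. CYP24A1-202, which starts inside the gene and has 10 exons in place of 12, had 17.8 and 15.6 FPKM in shMock and 4.51 and 5.98 FPKM in shDUSP23. Both were lower in each knockdown library, but neither passed among all transcripts (limma, Benjamini-Hochberg adjusted p = 0.0529 for 201 and 0.0525 for 202). CYP24A1-203 lacks 1 internal coding exon, exon 10 of CYP24A1-201, at chr20:54157388-54157585 on the minus strand. Its 198 bases are shown because they carry the heme-binding signature, in capitals, which the skipped form therefore lacks (GENCODE 29, GRCh38).
CYP24A1 exon 10: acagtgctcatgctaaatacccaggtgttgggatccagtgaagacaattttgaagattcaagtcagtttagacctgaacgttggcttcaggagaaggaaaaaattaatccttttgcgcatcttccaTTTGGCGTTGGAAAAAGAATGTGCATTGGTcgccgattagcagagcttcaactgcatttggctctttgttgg
The form without this exon had 9.81 and 7.45 FPKM in shMock and 5.49 FPKM in shDUSP23 1, and it was listed at 0 in shDUSP23 2. It made up 6.15%, 5.74%, 9.01% and 0% of the gene in these libraries, so its share followed no group. The noncoding CYP24A1-204 took 19.3%, 20.5%, 19.7% and 32.5% of the summed FPKM, so that library shDUSP23 2 had a smaller coding part at a like gene sum.

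Of 11 other genes of vitamin D metabolism and signalling tested, 3 were called higher and 1 lower. Their share called, 36.4%, stood beside 45.3% of all tested genes. The median log2 fold change was 0.20 beside 0.03 for all tested genes. At equal library sums 6 were called higher and 1 lower, with a median of 0.49 beside 0.34. VDR had 2.5 and 2.63 FPKM in shMock and 2.98 and 3.08 FPKM in shDUSP23 (limma, Benjamini-Hochberg adjusted p = 0.514). The activating 1-alpha-hydroxylase gene CYP27B1 had 3.87 and 4.18 FPKM against 3.42 and 4.15 FPKM (adjusted p = 0.78), and the 25-hydroxylase gene CYP2R1 had 16 and 12.6 FPKM against 16.8 and 13.8 FPKM (adjusted p = 0.678). For both of these enzymes the groups overlapped. RXRA, the heterodimer partner of VDR, rose from 7.15 and 7.18 FPKM to 11.5 and 12.9 FPKM (log2 fold change 0.73, SE 0.17; adjusted p = 0.00828), a call that ended without shMock replicate 1 (0.0572) or 2 (0.0633) at nearly the same fold change (0.72 and 0.73). The coactivator genes NCOA1 and NCOA2 rose by log2 fold changes of 0.84 and 0.48. The call of NCOA1 ended without shMock replicate 2 (limma, adjusted p = 0.0648). That of NCOA2, at adjusted p = 0.0387, ended under 8 of the 17 alternatives, among them leaving out any one library (0.0612 to 0.179). CD14, a monocyte receptor gene that vitamin D induces in myeloid cells, fell from 4.68 and 8 FPKM to 0.983 and 0.995 FPKM (log2 fold change -2.16).

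The 3 CYP4F genes lie together on chromosome 19. CYP4F3 spans 15640897 to 15662825 and CYP4F12 spans 15673087 to 15697174, both on the plus strand, and CYP4F11 spans 15912367 to 15934867 on the minus strand. They did not all pass the test, and the differences between them were not tested. CYP4F11, which prefers long-chain fatty acids and some drugs, had 10.6 and 10.5 FPKM in shMock and 16.4 and 18.9 FPKM in shDUSP23. The controls were nearly equal and both knockdown libraries lay above them. Its log2 fold change was 0.71 (95% interval 0.36 to 1.06, SE 0.15; limma, Benjamini-Hochberg adjusted p = 0.00633), and 33.2% of tested genes had a larger absolute change. Without shMock replicate 2 the call of CYP4F11 ended (adjusted p = 0.0543). Its transcripts 201 and 203 held 42.3% to 55.9% and 33.4% to 46.9% of the gene, and both were higher in each knockdown library. Transcript 201 had 4.71, 4.66, 6.94 and 10.5 FPKM and 203 had 4.18, 4.34, 7.70 and 6.31 FPKM, in the order shMock 1, shMock 2, shDUSP23 1 and shDUSP23 2.

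CYP4F12, which acts on arachidonic acid and antihistamines, was the lowest of the 6 genes. It had 2.7 and 3.58 FPKM in shMock and 9.75 and 4.80 FPKM in shDUSP23, from about 134, 213, 567 and 447 fragments. These counts rest on GENCODE 29 lengths, and the listed ends of CYP4F12-215 differ from GENCODE 29, so the counts are approximate. The 2 knockdown libraries differed more from each other than the lower of them differed from the higher control. The log2 fold change was 1.03 (95% interval 0.30 to 1.76, SE 0.32; limma, Benjamini-Hochberg adjusted p = 0.029), and 17.8% of tested genes had a larger absolute change. This call of CYP4F12 ended under 6 of the 17 alternatives, among them leaving out shMock replicate 1 (adjusted p = 0.175), shMock replicate 2 (0.088) or shDUSP23 replicate 1 (0.114; log2 fold change 0.55). Most of the difference in FPKM lay in CYP4F12-215, the 1 listed transcript labelled as protein-coding. It had 0.905, 0.948, 6.81 and 2.57 FPKM and made up 33.5%, 26.5%, 69.8% and 53.5% of the gene, in the same order of libraries. Its log2 fold change was 1.73 (SE 0.53). It did not pass among all transcripts (limma, Benjamini-Hochberg adjusted p = 0.163), whereas the same values passed when genes were summed from coding transcripts alone (adjusted p = 0.0126). The 2 other listed forms varied less: the retained-intron form 216 had 1.12, 1.73, 2.26 and 1.79 FPKM and the nonsense-mediated decay form 204 had 0.674, 0.9, 0.686 and 0.447 FPKM.

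CYP4F3, the leukotriene B4 hydroxylase gene, had 9.07 and 10.3 FPKM in shMock and 11.5 and 9.61 FPKM in shDUSP23. The groups overlapped. Its log2 fold change was 0.12 with a 95% interval of -0.28 to 0.52 (SE 0.17; limma with Benjamini-Hochberg adjustment, adjusted p = 0.612). The gene is known to make a pair of enzymes with different substrate preference by using 1 of 2 neighbouring exons. Transcripts CYP4F3-201 and CYP4F3-203 differ in their internal exons by just this choice: exon 3 of 201 lies at chr19:15645719-15645863 and exon 3 of 203 at chr19:15643907-15644051, both coding and on the plus strand. They are shown because they separate the 2 forms. Each has 145 bases, 70 of them identical at the same position (48.3%), and capitals mark the bases that differ (GENCODE 29, GRCh38).
CYP4F3-201 exon 3: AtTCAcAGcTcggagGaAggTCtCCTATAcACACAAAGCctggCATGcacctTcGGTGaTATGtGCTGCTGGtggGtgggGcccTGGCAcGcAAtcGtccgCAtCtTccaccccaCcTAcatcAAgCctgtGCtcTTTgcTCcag
CYP4F3-203 exon 3: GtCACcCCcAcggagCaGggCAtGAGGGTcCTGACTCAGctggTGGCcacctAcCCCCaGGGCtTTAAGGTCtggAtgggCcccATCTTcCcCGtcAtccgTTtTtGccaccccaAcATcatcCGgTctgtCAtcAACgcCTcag
Transcript 201 had 4.93, 6.35, 7.37 and 5.73 FPKM and 203 had 2.03, 2.97, 1.87 and 1.65 FPKM in shMock 1, shMock 2, shDUSP23 1 and shDUSP23 2. The form with the downstream exon thus predominated in all 4 libraries. Of the sum of both forms, 201 made up 70.8% and 68.2% in shMock and 79.8% and 77.6% in shDUSP23. The shares did not overlap between the groups, but 2 libraries against 2 cannot give less than the two-sided exact permutation p = 0.333 found here. The other listed forms of CYP4F3 changed from library to library: 204 had 1.68, 0.0709, 2.25 and 0 FPKM and the retained-intron form 207 had 0.430, 0.896, 0 and 2.23 FPKM.

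**Figure D2:**
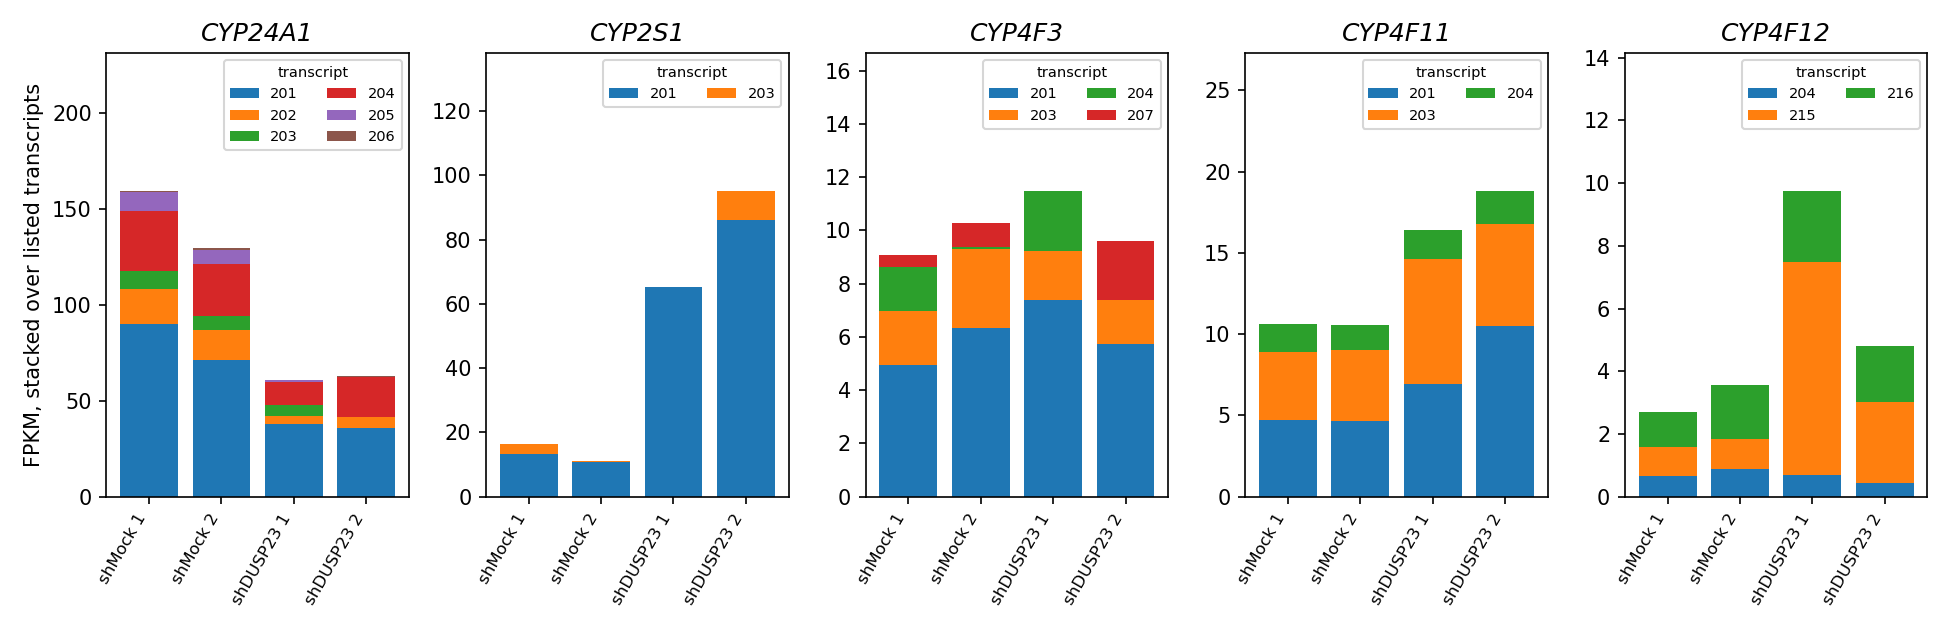
FPKM of each listed transcript, stacked to the gene sum, in the 4 libraries for 5 of the P450 genes; colours stand for transcript numbers within a gene. CYP24A1 is lower in both shDUSP23 libraries, and CYP4F12-215 grows from 0.905 and 0.948 FPKM in shMock to 6.81 and 2.57 FPKM in shDUSP23, while the minor CYP4F3 and CYP2S1 forms vary between replicates.

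Values of 0 in single transcripts need care. Of the 20 listed transcripts 5 were at 0 in at least 1 library, each time in an shDUSP23 library. Zeros were also more frequent there over all 56389 listed transcripts, with 2930 and 4334 in the shMock and 4814 and 9946 in the shDUSP23 libraries. Over the 4 libraries they rose in the order of the estimated fragment totals, from 21270000 in shMock 1 to 42240000 in shDUSP23 2. Whether the zeros go with depth or with the group was not tested. CYP4F3-207 went from 0 to about 196 fragments between the 2 knockdown libraries, and CYP24A1-203 from about 330 to 0.

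The order of the genes by level also differed between the groups. Within shMock CYP24A1 (145 ± 21.0 FPKM) stood above CYP1B1 (51.1 ± 3.59 FPKM), then came CYP2S1 (13.9 ± 3.73 FPKM), CYP4F11 (10.6 ± 0.048 FPKM), CYP4F3 (9.68 ± 0.855 FPKM) and CYP4F12 (3.14 ± 0.622 FPKM; all mean ± SD, n = 2). CYP4F11 and CYP4F3 lay within about 1 SD of each other. Within shDUSP23 CYP2S1 (80.2 ± 21.3 FPKM) and CYP1B1 (74.7 ± 2.04 FPKM) overlapped at the top, followed by CYP24A1 (61.8 ± 1.31 FPKM), CYP4F11 (17.6 ± 1.74 FPKM), CYP4F3 (10.6 ± 1.33 FPKM) and CYP4F12 (7.28 ± 3.50 FPKM). The last 2 overlapped as well.

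Of the other protein-coding CYP genes, 14 had values and 8 passed the filter. Among these 2 were called higher and 1 lower (37.5%), beside 45.3% of all tested genes. CYP26B1, which degrades retinoic acid, rose from 10.6 and 12.1 FPKM to 22 and 26.4 FPKM (log2 fold change 1.06, SE 0.16; limma, Benjamini-Hochberg adjusted p = 0.00113). The sterol demethylase gene CYP51A1, an enzyme of cholesterol synthesis, fell from 55.2 and 46.3 FPKM to 24.5 and 21.9 FPKM (log2 fold change -1.11, SE 0.14; adjusted p = 0.000513). The drug-metabolising CYP3A5 rose from 8.58 and 6.87 FPKM to 10 and 15.5 FPKM (log2 fold change 0.66, SE 0.23; adjusted p = 0.0433), and this call ended under 7 of 17 alternatives, with adjusted p = 0.196 without shDUSP23 replicate 2, 0.0891 without shMock replicate 1 and 0.252 without shMock replicate 2. CYP27B1, CYP2R1, CYP20A1, CYP4V2 and CYP27C1 did not pass, and the sign of each depended on the scaling or on single libraries. After the GC and length correction CYP2R1 was called higher (log2 fold change 0.46), and 3 of these other CYP genes were then called higher and 1 lower.

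**Figure D3:**
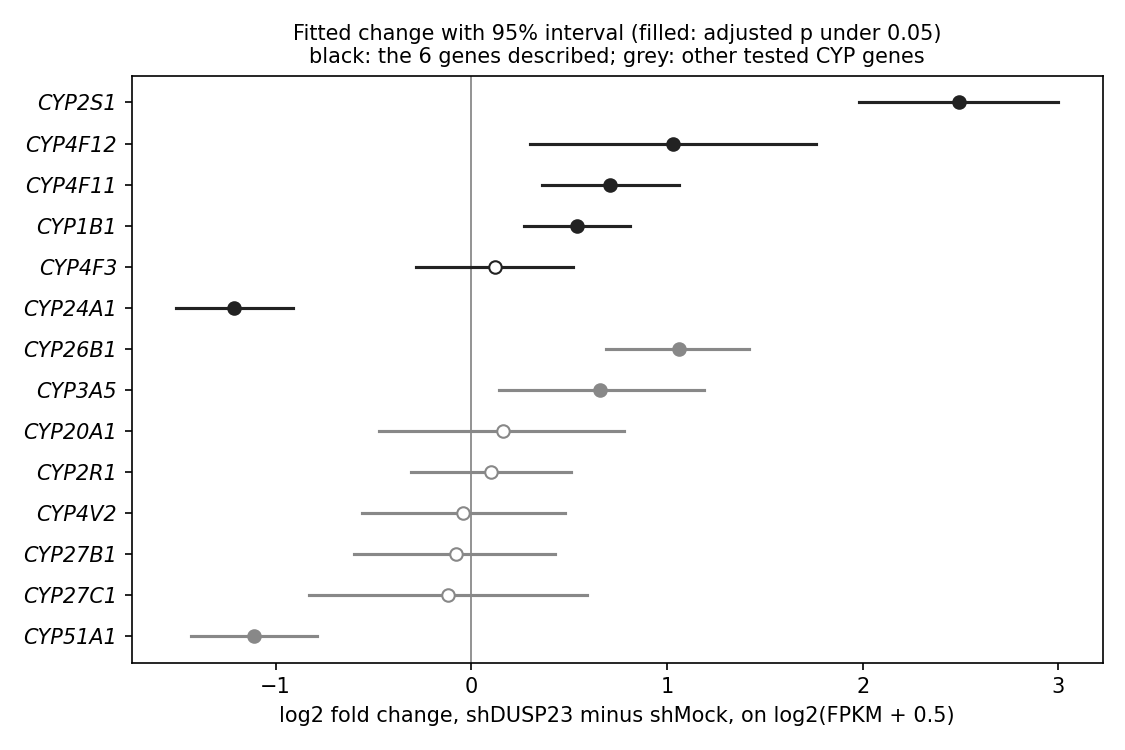
Log2 fold change (horizontal axis, shDUSP23 minus shMock on log2(FPKM + 0.5)) with its 95% limma interval for the 6 P450 genes described (black) and the 8 other tested CYP genes (grey). Filled points passed at an adjusted p under 0.05; CYP2S1 at 2.49 lies apart from the rest, and CYP24A1 at -1.21 and CYP51A1 at -1.11 are the lower ones.

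Of 10 tested genes for electron donors and partners of P450s, 0 were called higher and 4 lower. Their share called, 40.0%, lay near the 45.3% of all tested genes. The median log2 fold change was -0.31, and 0.01 at equal library sums. POR had 41.5 and 44.4 FPKM in shMock and 29.4 and 44.4 FPKM in shDUSP23 (limma, Benjamini-Hochberg adjusted p = 0.313). After the GC and length correction POR was called lower (log2 fold change -0.53). CYB5B, the cytochrome b5 of the outer mitochondrial membrane, fell from 356 and 401 FPKM to 143 and 166 FPKM (log2 fold change -1.29, SE 0.13). FDX1, the ferredoxin that serves CYP24A1, fell from 8.99 and 9.39 FPKM to 4.88 and 4.35 FPKM (log2 fold change -0.92, SE 0.19; adjusted p = 0.0044; 0.0587 without shMock replicate 2). FDXR, its reductase, fell from 18.6 and 20.8 FPKM to 9.70 and 15.2 FPKM (log2 fold change -0.67, adjusted p = 0.0308). The heme-binding protein gene PGRMC1 fell by 0.40 on the log2 scale (adjusted p = 0.0233). The calls of FDXR and PGRMC1 ended under 6 and 7 alternatives, among them equal library sums (adjusted p = 0.188 and 0.68). They also ended without shMock replicate 1 (0.101 and 0.0933), shMock replicate 2 (0.187 and 0.0855) or shDUSP23 replicate 1 (0.113 for both).

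Eicosanoid enzymes, which make or degrade the lipid mediators that CYP4F enzymes also act on, were mostly lower. Of 12 tested, 1 was called higher and 7 lower (66.7%, beside 45.3% of all tested genes), with a median log2 fold change of -0.95. PLA2G4A, the phospholipase that releases arachidonic acid, fell from 59.3 and 68.8 FPKM to 10.3 and 9.28 FPKM (log2 fold change -2.65). HPGD, which inactivates prostaglandins, fell from 131 and 156 FPKM to 31.6 and 32.8 FPKM (log2 fold change -2.13). The prostaglandin and leukotriene reductase gene PTGR1 fell from 238 and 258 FPKM to 90.2 FPKM in both knockdown libraries. The cyclooxygenase gene PTGS2 fell from 188 and 151 FPKM to 85.2 and 89.9 FPKM (log2 fold change -0.94). The prostaglandin E synthase gene PTGES was the member called higher, from 25.1 and 24.3 FPKM to 40.9 and 38.8 FPKM. Retinoid genes went both ways, with 4 called higher and 4 lower of 14 tested (57.1%) and a median of 0.01. ALDH1A1 fell from 2471 and 3207 FPKM to 616 and 673 FPKM, RDH10 from 50 and 57.5 FPKM to 26.6 and 28.3 FPKM and the receptor gene RARB from 7.67 and 8.03 FPKM to 2.78 and 1.60 FPKM, while CYP26B1 rose as given above. Of 9 xenobiotic and lipid nuclear receptor genes 3 were called higher and 1 lower (44.4%), with a median of 0.29. PPARA, a fatty acid sensor, rose from 0.887 and 0.839 FPKM to 3.37 and 3.28 FPKM (log2 fold change 1.49), NR2F1 rose from 10.5 and 11 FPKM to 27.9 and 29.2 FPKM, PPARD rose by 0.89 on the log2 scale and the oxysterol receptor gene NR1H2 fell by 0.66. PPARD lost its call without shMock replicate 1 (limma, adjusted p = 0.101) or 2 (0.0682) and after the GC and length correction (0.13). NR1H2 lost it without shMock replicate 2 (0.0714) and with equal library sums (0.0931).

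These directions depend in part on how libraries are scaled. The listed FPKM summed to 540163 and 578361 in shMock and to 438604 and 446982 in shDUSP23. When every library was scaled to the same sum, the median over all tested genes shifted to 0.34 on the log2 scale from 0.03. The share called rose to 50.7%, with 38.4% higher and 12.3% lower, and higher genes made up 75.7% of the calls in place of 51%. CYP2S1 then had 2.82, CYP4F12 1.33, CYP4F11 1.03, CYP1B1 0.88, CYP4F3 0.44 and CYP24A1 -0.88, and each of the 6 kept its side of the threshold. Of the AHR pathway genes 6 were then called higher and 3 lower, with AHR among the higher ones (log2 fold change 0.57; limma, Benjamini-Hochberg adjusted p = 0.0312). Over the 6 related lists together, 11 were called higher and 23 lower of 68 tested as deposited (22 calls in all without shMock replicate 2, in place of 34), and 24 higher and 17 lower at equal sums. Per list the counts at equal sums were 6 higher and 1 lower for vitamin D, 1 and 2 for electron donors, 2 and 7 for eicosanoid enzymes, 5 and 4 for retinoid genes and 6 and 0 for nuclear receptors.

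**Figure D4:**
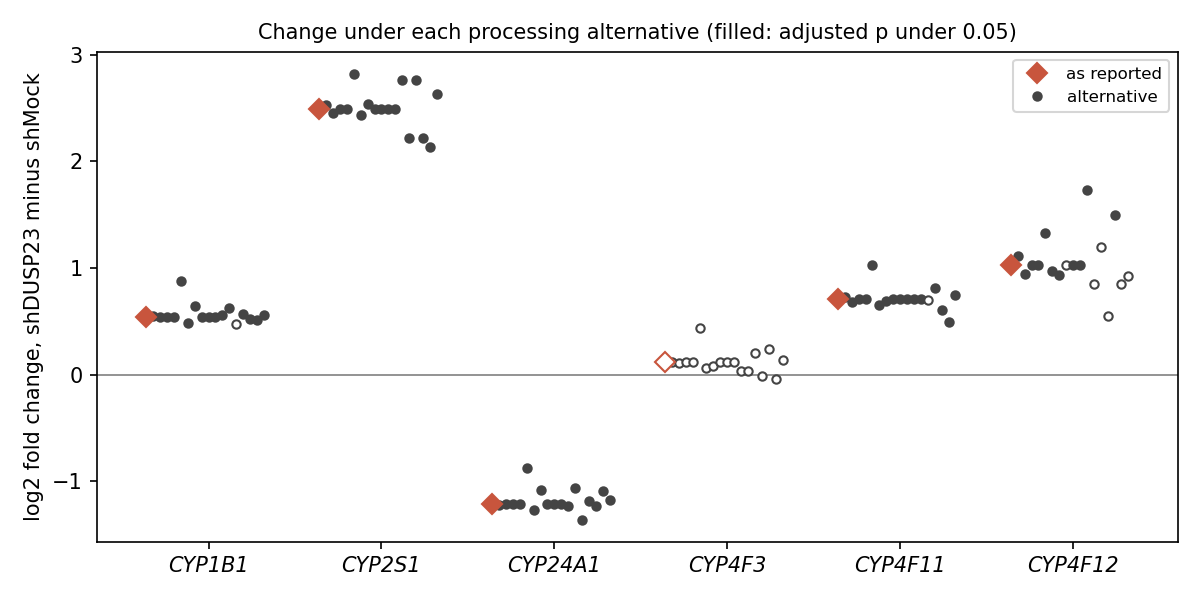
Log2 fold change (vertical axis) of each P450 gene as reported (red diamonds) and under 17 processing alternatives (dark circles); filled symbols passed at an adjusted p under 0.05. CYP2S1 stays between 2.13 and 2.82 and CYP24A1 between -1.36 and -0.88, all filled, whereas 6 circles of CYP4F12 are open.

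Genes with the most similar pattern over the 4 libraries were found by the Euclidean distance between log2 profiles centred on their mean. For CYP2S1 the nearest were LCN6 (0.195) and the collagen gene COL5A1 (0.239), which had 1.96 and 1.61 FPKM in shMock and 9.55 and 15.5 FPKM in shDUSP23. LCN6 had 0.455 and 0.234 FPKM in shMock, below the 0.5 added before the logarithm, and 2.93 and 4.7 FPKM in shDUSP23. By group means LCN6 rose 11.1 times and CYP2S1 5.79 times. For CYP24A1 they were DNAAF4 (0.021) and the protein kinase C gene PRKCA (0.034), which had 24.8 and 20.8 FPKM against 9.35 and 9.66 FPKM. The aminopeptidase gene NPEPPS and the interferon regulatory factor gene IRF2 were nearest to CYP1B1, both at 0.026. RHBDD3 (0.018) and the clock gene PER3 (0.023) were nearest to CYP4F11, ZCWPW1 (0.070) and LRRC46 (0.197) to CYP4F12, and KLF12 (0.019) and ALKBH4 (0.022) to CYP4F3. DNAAF4, PER3, ZCWPW1, LRRC46 and KLF12 were low as well, with shMock means of 3.42, 0.823, 0.76, 0.831 and 1.08 FPKM. The added 0.5 shrinks the changes of such genes. With 4 libraries such distances describe these profiles only. The profiles of CYP2S1 and CYP4F12 had less close neighbours than those of the other 4 genes.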

How the data were processed

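RNA was measured in 4 libraries of A549 cell clusters, grouped by their titles into shMock and shDUSP23, 2 each. The authors deposited FPKM per Ensembl transcript and library. The submitters' processing notes name STAR 2.7.1a, DESeq2 1.32.0 and GRCh38. Not given in the sources used here are the quantifier, its annotation release, strandedness and how transcripts were selected for the table. The 7 genes, the related lists and the tests were chosen with earlier results of these data known.

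Gene values are sums of transcript FPKM by gene ID. After a filter at a mean FPKM of 1, log2(FPKM + 0.5) entered limma 3.58.1 under R 4.3.3 (eBayes, trend on), two-sided, with Benjamini-Hochberg adjustment over all tested genes and a threshold of 0.05. Transcripts were tested likewise, with the filter at a mean FPKM of 0.5. The procedure was also run on simulated data drawn with its own fitted spreads. Such data follow its assumptions by construction, so they do not show how well it suits these libraries. In single-transcript genes whose ends match GENCODE release 29, low FPKM values up to 50 fragments lay on whole steps (tolerance 0.1 fragment) for 99.9% to 100.0% of values, which gave the fragment totals. Besides the P450 genes, DUSP23, the called other CYP genes, up to 4 genes of smallest p per list and the 2 nearest profiles per gene were to be named; further list genes were named after their values were seen. Results were recomputed under 15 other settings (pseudocount, filter, scaling, eBayes form, replicate block, coding transcripts, each library left out) and 2 added after seeing the data (a GC and length correction with splines of 5 degrees of freedom, and limma-voom on recovered fragments). Python 3.11.15, pandas 2.3.3 and matplotlib 3.10.9 made tables and figures.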

Additional observations from a re-analysis of the deposited data

How the results depend on the processing

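Of 17 alternatives, all kept the direction and the call of CYP2S1 (2.13 to 2.82 on the log2 scale) and CYP24A1 (-1.36 to -0.88). CYP1B1 and CYP4F11 kept theirs except without shMock replicate 2 (0.47 and 0.70). CYP4F12 stayed higher but lost its call at 1.03 with eBayes without trend, at 0.85 after the GC and length correction and at 0.92 with voom; leaving out 1 library gave 0.55 to 1.5. CYP4F3 turned to -0.04 after the GC and length correction and to -0.01 without shDUSP23 replicate 1. Leaving out 1 library gave 0.47 to 0.62 for CYP1B1, 0.61 to 0.81 for CYP4F11 and -0.01 to 0.24 for CYP4F3. It gave 3258 to 6391 changed genes in all (6202 with every library) and 22 to 35 changed genes over the 6 related lists (34 with every library). The cause of these shifts was not tested, beyond the smaller number of libraries.

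Genes that did not pass changed sign in places. AHR had -0.03 without shMock replicate 2 (leaving out 1 library gave -0.03 to 0.51). VDR had -0.16 after the GC and length correction. POR had 0.09 at equal sums and 0.05 without shDUSP23 replicate 1 (-0.54 to 0.05). In the other direction, POR was called lower after the GC and length correction (-0.53) and had -0.54 without shDUSP23 replicate 2. CYP27B1 had 0.21 at equal sums and 0.04 without shDUSP23 replicate 1 (-0.21 to 0.04). CYP2R1 had -0.07 without shMock replicate 2 and -0.04 without shDUSP23 replicate 1 (-0.07 to 0.27), and was called higher at 0.46 after the GC and length correction. KLF12 had -0.03 with quantile normalization and -0.01 without shDUSP23 replicate 1 (-0.01 to 0.23). ALKBH4 had -0.003 with quantile normalization, -0.34 with coding transcripts alone, -0.03 without shDUSP23 replicate 1 (-0.03 to 0.23), -0.14 after the GC and length correction and -0.06 with voom. Of the other CYP genes, CYP20A1 (0.16) had -0.40 with coding transcripts alone, -0.004 without shMock replicate 2 and -0.23 without shDUSP23 replicate 1. CYP4V2 (-0.04) had 0.25 at equal sums and 0.04 both with voom and without shDUSP23 replicate 1. CYP27C1 (-0.12) had 0.13 at equal sums and 0.08 without shMock replicate 1.

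With the replicate block the values were 2.49 for CYP2S1, -1.21 for CYP24A1 and 1.03 for CYP4F12, and 6707 genes were called; no call of the 6 P450 genes changed. The header labels N3 and N4 each occur in both groups, as replicates 1 and 2. Libraries with the same number did not deviate together (Pearson's r = 0.05 over 13691 genes). With 2 libraries per group this cannot settle whether they were paired, and the main fit did not take them as pairs. CYP1A1 has no value under any alternative. Depth limits the lowest gene, CYP4F12, most, with about 134 fragments in shMock 1.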
